A study of Arabidopsis thaliana with 48 samples.

Results

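CP29 is a minor antenna protein of photosystem II that is encoded in Arabidopsis by 3 nuclear genes, LHCB4.1 (AT5G01530), LHCB4.2 (AT3G08940) and LHCB4.3 (AT2G40100). The genes were chosen by locus, and each was measured by 1 probe set of the ATH1 array (251082_at, 258993_at and 265722_at). They are 3 of 22810 probe sets on the array, and all 3 were among the 15777 probe sets that passed a filter on low signals. The rule that picks them is a list of loci and has no threshold on signals, but the family was taken up with earlier results of these data known.

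The study set etiolated Col-0 seedlings against seedlings given light, and the RNA came mainly from hypocotyl and cotyledons. All groups grew in darkness at 22 °C for 94 h after germination had been induced by light, and they were harvested at 45 min or at 4 h. Of the 8 conditions at each harvest, 1 was continued darkness. The continuous lights were far-red at 715 nm, red at 650 nm, blue at 453 nm and white, each at 10 µmol per square metre and second. The pulses were red light for 1 min at 50 µmol per square metre and second, UV-A for 5 min behind a filter with its edge at 327 nm, and UV-A/B for 5 min. The UV-A pulse was given at 7 W per square metre. For UV-A/B, 1 of 6 labels states the same irradiance and a filter edge at 307 nm, and the others do not spell the treatment out. That label belongs to replicate 2 at 45 min, an array whose labels conflict (below). Each of the 16 groups held 3 arrays, 48 in all, and nothing in the labels says whether replicates came from separate cultures. The p-values therefore rest on array-to-array spread that may be purely technical.

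CP29 binds chlorophyll a, chlorophyll b and xanthophylls, and in the membrane it sits between the photosystem II core and the outer trimeric light-harvesting complexes. It passes excitation energy inward and takes part in the dissipation of excess light. Antenna proteins are made in the cytosol and imported into plastids. In dark-grown seedlings the plastids are etioplasts without chlorophyll, and light starts chlorophyll synthesis and the assembly of thylakoid membranes. Transcripts of light-harvesting genes are widely used to follow this change, which phytochromes and cryptochromes control.

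Labels disagreed with each other for 3 arrays. For replicate 2 of UV-A/B at 45 min the title gives the pulse and the description gives darkness, the germination light of dark 4 h replicate 1 was green rather than red, and the title of far-red 45 min replicate 2 holds the numbers 1 and 2. No array was left out of the values below for this reason, and results that change without one of these arrays are given with and without it. Over all probe sets, arrays of the same group correlated between 0.953 and 0.977, and arrays of different groups between 0.926 and 0.979. Of the markers of cotyledon and hypocotyl plastids 1 of 5 had a probe set of its own, RCA, the activase of Rubisco, with signals from 351.4 to 2184.1. Of 5 root markers 1 was measured, EXPA7, a root hair expansin, with signals from 2.7 to 25 that did not pass the filter. None of 3 seed reserve markers was measured. In whole seedlings, fewer cells of a type and less RNA per cell cannot be told apart.

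All values are MAS5 signals on a linear scale. Changes are differences of log2(signal + 1) between group means, tested with limma over all tested probe sets, and a gene was called higher or lower where the Benjamini-Hochberg adjusted p was below 0.05. For each gene, standard errors and intervals rest on a spread shared by all 16 groups, so they can be too narrow for groups that vary more. The signal of LHCB4.1 ranged from 269.1 to 1666.6 over the 48 arrays, that of LHCB4.2 from 174.7 to 1508.6 and that of LHCB4.3 from 83.9 to 215.3. Signals of different probe sets are not set against each other, since probes differ in brightness.

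The main pattern was higher LHCB4.1 and LHCB4.2 signals than in darkness at 4 h under each light, pulses included. Of these changes, only that of LHCB4.2 after UV-A/B missed the threshold (0.68, adjusted p = 0.0519, limma). Each call after a pulse was lost when certain single arrays were left out. LHCB4.3 was called higher at 4 h under far-red and blue light. At 4 h, 15 of the 21 tests of a CP29 gene against darkness were called higher and none lower. LHCB4.1 was called in 7 of 7 treatments, LHCB4.2 in 6 of 7 and LHCB4.3 in 2 of 7. At 45 min, 1 of 21 tests was called, that of LHCB4.2 after UV-A/B. These counts come from the fit without a block on the replicate number. Where the numbers pair the arrays, the block also called LHCB4.2 at 45 min after the red pulse (adjusted p = 0.0173, limma) and UV-A (adjusted p = 0.0275, limma). It likewise called LHCB4.2 after UV-A/B at 4 h (adjusted p = 0.0028, limma). Over all tested probe sets at 4 h, the share called higher was 8.49% in red, 13.6% in far-red, 12.8% in blue, 11% in white, 1.81% after the red pulse, 2.55% after UV-A and 10.9% after UV-A/B. At 45 min the shares were 1.74% in red, 1.6% in far-red, 2.26% in blue, 2.03% in white, 1.67% after the red pulse, 3.7% after UV-A and 5.29% after UV-A/B. The median change of the 3 genes at 4 h ran from 0.68 (UV-A/B) to 1.58 (red) on the log2 scale, where the median of all tested probe sets ran from -0.033 to 0.00056. At 45 min the median of the genes ran from 0.17 to 0.31, and that of all tested probe sets from -0.064 to 0.0047. The 7 comparisons of a harvest share the same 3 dark arrays, so they are not independent of each other.

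**Figure D1:**
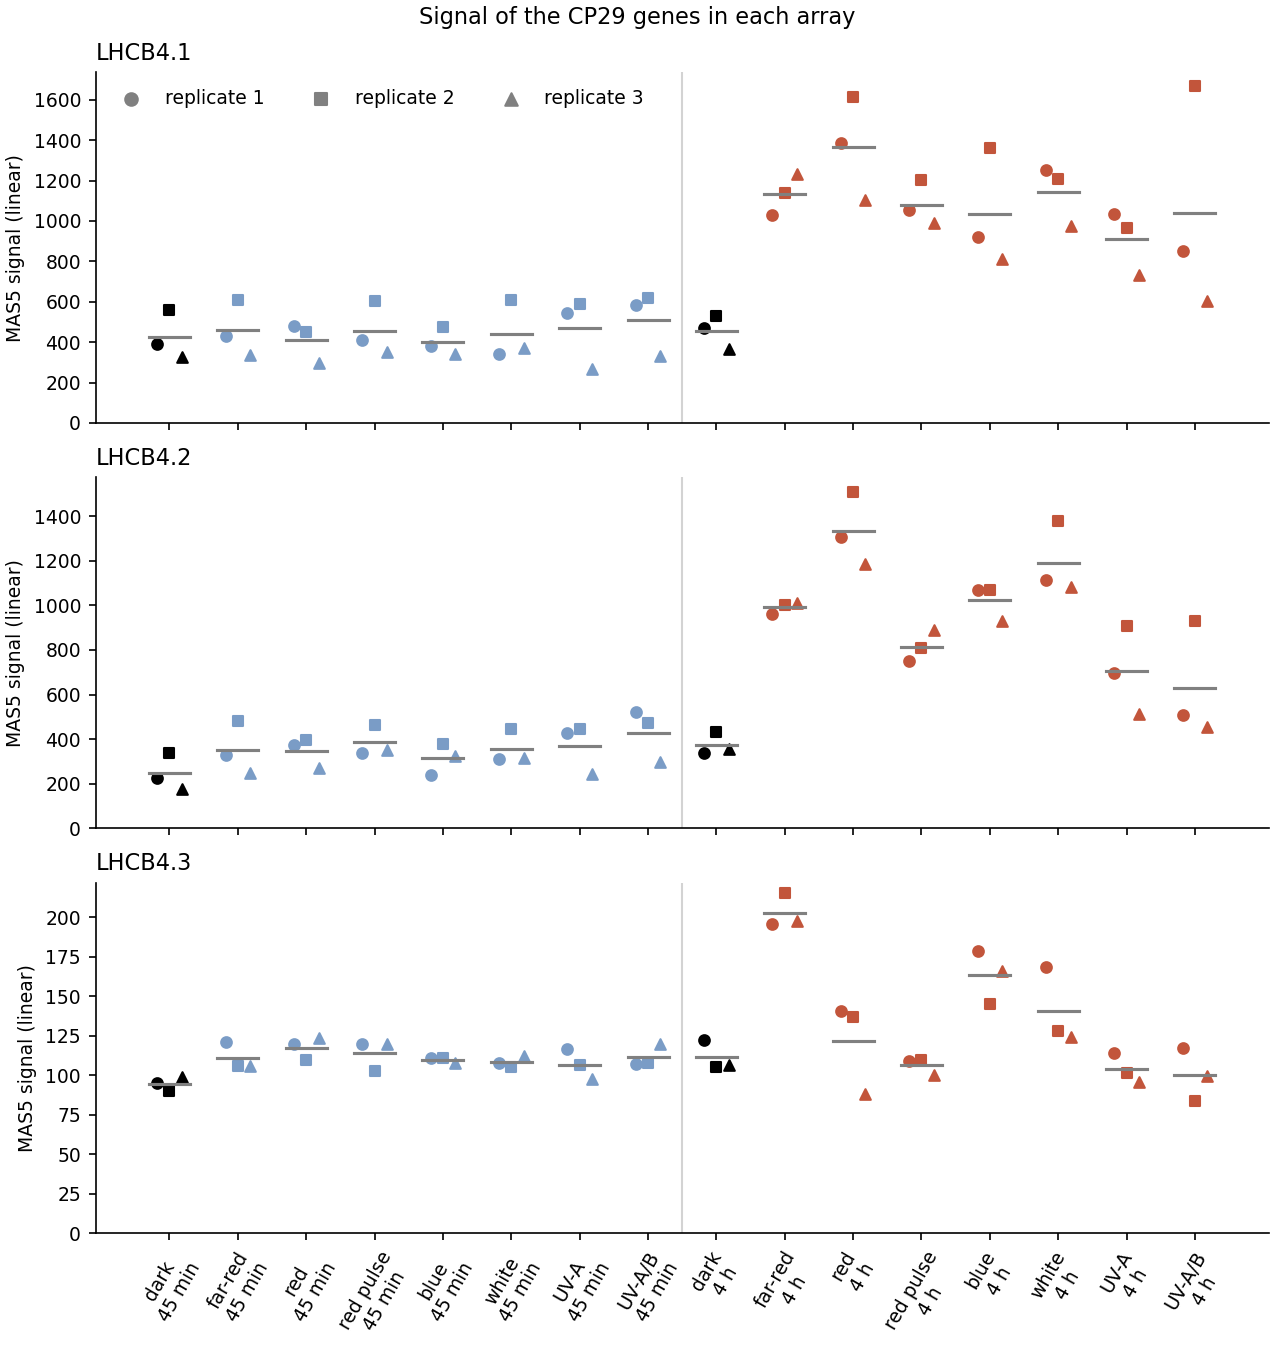
MAS5 signal (linear scale, from 0) of LHCB4.1, LHCB4.2 and LHCB4.3 in each of the 48 arrays, by group. Symbols mark the replicate number, grey bars are group means, dark groups are black, and groups at 45 min and 4 h are blue and red. For LHCB4.1 and LHCB4.2 the 21 light arrays at 4 h lie above the 3 dark arrays, and for LHCB4.3 the far-red arrays at 4 h (195.6 to 215.3) stand above the arrays of every other group.

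LHCB4.1 is one of the closely related pair of genes that encode the common form of CP29. In darkness at 4 h its signals in replicates 1, 2 and 3 were 470.9, 531.8 and 365.4. In far-red light they were 1029.1, 1140.9 and 1234.6, and in red light 1386.2, 1613.7 and 1103.9. All arrays of both lights were above all dark arrays. The change was 1.33 ± 0.30 (log2, standard error) in far-red with an adjusted p of 0.000625, and 1.58 ± 0.30 in red with an adjusted p of 0.00014 (limma). As fitted folds on the log2(signal + 1) scale these are 2.51 and 2.99.

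In blue light at 4 h the LHCB4.1 signals were 920.8, 1363.0 and 813.2, and in white light 1253.1, 1208.9 and 974.9. The changes were 1.16 ± 0.30 (adjusted p = 0.00299, limma) and 1.34 ± 0.30 (adjusted p = 0.000839, limma). Again no light array fell among the dark arrays. After the red pulse, which had ended hours before this harvest, the signals were 1053.1, 1201.3 and 988.1 and the change was 1.26 ± 0.30 (adjusted p = 0.012, limma). Leaving out dark 4 h replicate 3 (1.1, adjusted p = 0.102) or red pulse 4 h replicate 2 (1.18, adjusted p = 0.0648) ended this call.

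The UV pulses gave LHCB4.1 signals at 4 h of 1036.1, 965.5 and 732.4 for UV-A and of 851.3, 1666.6 and 605.3 for UV-A/B. The UV-A/B group had the widest spread of any group for this gene, with a coefficient of variation of 53.4%, and its replicate 2 was the highest of all 48 arrays. The changes were 1.00 ± 0.30 (adjusted p = 0.0447, limma) for UV-A and 1.08 ± 0.30 (adjusted p = 0.00737, limma) for UV-A/B. The UV-A call was lost without UV-A 4 h replicate 1 (0.90, adjusted p = 0.155) or 2 (0.95, 0.136) and without dark 4 h replicate 1 (1.03, 0.103), 2 (1.12, 0.0568) or 3 (0.85, 0.211). Leaving out replicate 2 of UV-A/B 4 h (0.67, adjusted p = 0.138) or replicate 3 of dark 4 h (0.92, adjusted p = 0.0526) ended the UV-A/B call. Without UV-A/B 4 h replicate 2 the value thus moved from 1.08 to 0.67.

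At 45 min LHCB4.1 did not separate from darkness. Its dark signals were 389.9, 560.1 and 326.8, and the 21 light arrays ran from 269.1 to 620.6 with a median of 430.7. Of these, 6 were above all dark arrays and 2 below all of them. The changes ran from -0.07 in blue to 0.25 after UV-A/B, with adjusted p from 0.733 to 0.997 (limma). The 95% confidence intervals reached from -0.68 at the lowest to 0.86 at the highest.

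LHCB4.2 encodes the second copy of the same form of CP29. Its dark signals at 4 h were 336.6, 430.5 and 355.5. Red light gave 1309.8, 1508.6 and 1188.3, the highest group mean for this gene (1336 ± 162, SD, n = 3). White light gave 1112.8, 1381.5 and 1080.9. The 2 groups overlapped each other and both stood clear of darkness, by 1.83 ± 0.26 (adjusted p = 9.6e-07, limma) and 1.67 ± 0.26 (adjusted p = 3.35e-06, limma). Far-red light gave 961.7, 1000.0 and 1011.1, with the smallest spread of the 16 groups (coefficient of variation 2.62%). Blue light gave 1070.5, 1071.2 and 929.1. Both were above all dark arrays, by 1.41 ± 0.26 (adjusted p = 3.42e-05, limma) and 1.45 ± 0.26 (adjusted p = 2.45e-05, limma).

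LHCB4.2 was also higher at 4 h after the red and UV-A pulses, with lower group means than in continuous light. After the red pulse its 4 h signals were 749.8, 808.0 and 887.6, all below all arrays in continuous far-red, red, blue and white light. Neither red (adjusted p = 0.144, limma) nor far-red light (adjusted p = 0.551, limma) was called against the red pulse. Blue and white light were not tested against it, so this absence of overlap is a description only. Against darkness the red pulse change was 1.13 ± 0.26 (adjusted p = 0.00833, limma). Leaving out dark 4 h replicate 1 (1.05, adjusted p = 0.0513) or red pulse 4 h replicate 3 (1.06, adjusted p = 0.0548) ended that call. After UV-A the signals were 694.9, 909.4 and 512.2, which is 0.88 ± 0.26 above darkness (adjusted p = 0.0371, limma). The UV-A call was lost without UV-A 4 h replicate 1 (0.87, adjusted p = 0.0933) or 2 (0.68, 0.234) and without dark 4 h replicate 1 (0.81, 0.149) or 3 (0.85, 0.121). After UV-A/B the signals were 509.2, 931.0 and 452.3, above the 3 dark arrays but not past the threshold (0.68 ± 0.26, adjusted p = 0.0519, limma). Deviations of same-numbered arrays of these 2 groups correlated by 0.10 to 0.15 over all tested probe sets. Blocked on the number, the same change had an adjusted p of 0.0028 (limma). It was also called once replicate 1 (0.80, adjusted p = 0.0468) or 3 (0.89, adjusted p = 0.0209) of the pulse group was removed. With UV-A/B 4 h replicate 2 left out it was 0.37, so that array decides much of the value.

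At 45 min LHCB4.2 had dark signals of 226.5, 335.2 and 174.7 and light signals from 237.7 to 519.7 with a median of 352.7. Of the 21 light arrays 12 were above all dark arrays and none was below them all. Set against the dark array of the same replicate number, an alternative chosen after seeing the data, the light array was higher in 21 of 21 cases for LHCB4.2, 20 of 21 for LHCB4.3 and 15 of 21 for LHCB4.1. Counts at least as high were found for 2.54%, 3.83% and 18.5% of all tested probe sets, in that order. Deviations of same-numbered far-red and dark arrays at this harvest correlated by 0.043, 0.33 and 0.25 over all tested probe sets (numbers 1 to 3). For white light they correlated by -0.0011, 0.27 and 0.26. Neither comparison passed the rule used for pairing, a correlation above 0.1 for every number. UV-A/B gave 519.7, 470.4 and 294.8 and the only called change at this harvest (0.81 ± 0.26, adjusted p = 0.0399, limma). Its replicate 3 lay within the range of the dark arrays. The call ended when an array was left out, for replicate 1 of the pulse group (0.65, adjusted p = 0.192), its replicate 2, whose labels conflict (0.72, 0.154), and dark 45 min replicates 1 (0.78, 0.11) and 3 (0.59, 0.246). The red pulse gave 336.8, 464.7 and 352.7 (0.68 ± 0.26, adjusted p = 0.243) and UV-A gave 425.1, 443.8 and 240.9 (0.59 ± 0.26, adjusted p = 0.227). Blocked on the replicate number, which pairs the arrays of these comparisons, both were called, with adjusted p of 0.0173 and 0.0275 (limma). The other lights gave 0.38 (blue) to 0.57 (white), with adjusted p from 0.401 to 0.68.

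LHCB4.3 encodes a form of CP29 that lacks part of the C-terminal end of the other 2, and it is also known as LHCB8. Its dark signals at 4 h were 122.0, 105.1 and 106.5. Far-red light gave 195.6, 215.3 and 197.8, and blue light 178.4, 145.2 and 165.8. Both groups stood above all dark arrays, by 0.86 ± 0.13 (adjusted p = 1.08e-06, limma) and 0.55 ± 0.13 (adjusted p = 0.00111, limma). As fitted folds these are 1.82 and 1.46. Both calls held without each array in turn.

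Under the other lights at 4 h LHCB4.3 was not called. White light gave 168.7, 128.0 and 124.4, all above the dark arrays (0.32 ± 0.13, adjusted p = 0.0722, limma). Without white 4 h replicate 3 this change was 0.40 with an adjusted p of 0.0442. Red light gave 140.4, 136.6 and 87.9, so that 1 array was below all dark arrays and the other 2 above them (0.10 ± 0.13, adjusted p = 0.691). The red pulse (108.9, 109.4 and 100.4), UV-A (114.2, 101.6 and 95.6) and UV-A/B (117.4, 83.9 and 99.4) overlapped darkness, with changes of -0.063, -0.099 and -0.16 and adjusted p of 0.914, 0.782 and 0.428. The 95% intervals of these 4 changes reached no higher than 0.36, 0.20, 0.16 and 0.10. They rest on the spread shared by all groups. Red light at 4 h had the widest spread of any group for this gene (coefficient of variation 24.1%), so its upper limit may be too low.

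At 45 min the LHCB4.3 signals in darkness were 95.3, 89.7 and 98.9. The light arrays ran from 97.4 to 123.3 with a median of 109.5, and 20 of 21 were above all dark arrays. The exception was UV-A 45 min replicate 3, so the groups did not overlap in 6 of 7 treatments. Over all tested probe sets, the share whose 3 light arrays lay above the 3 dark arrays at this harvest was 6.61% in red, 6.78% in far-red, 7.42% in blue, 5.96% in white, 6.66% after the red pulse, 7.65% after UV-A and 8.49% after UV-A/B. The changes were small, from 0.17 after UV-A to 0.31 in red, and none was called (adjusted p from 0.327 to 0.776, limma). All 6 groups share the same dark arrays. For LHCB4.1 no group and for LHCB4.2 1 group (the red pulse) was clear of darkness at 45 min in this way. At 4 h LHCB4.1 and LHCB4.2 were clear of darkness in 7 of 7 treatments and LHCB4.3 in 3 of 7, where the shares over all probe sets were 17.7% in red, 21% in far-red, 20.2% in blue, 19.4% in white, 12% after the red pulse, 10.2% after UV-A and 18% after UV-A/B.

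**Figure D2:**
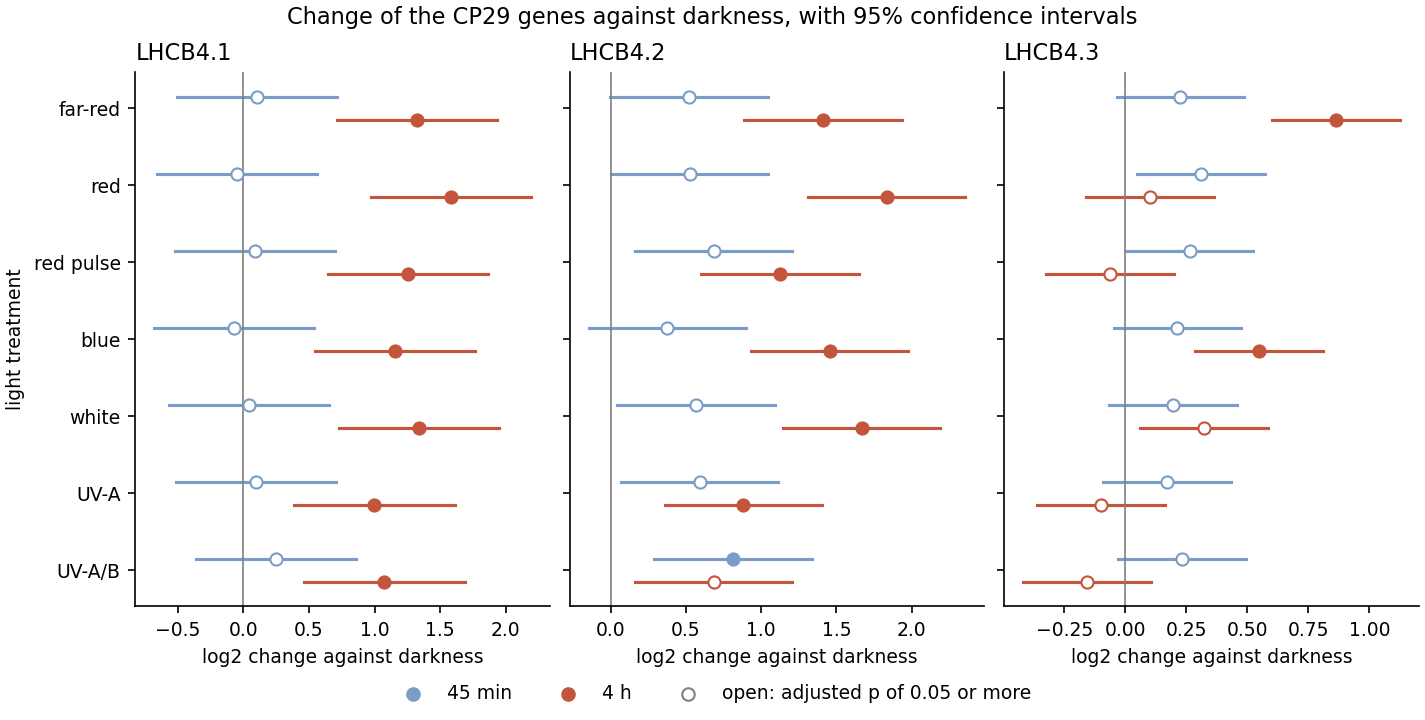
Change against the dark group of the same harvest in log2(signal + 1), with 95% confidence intervals from the limma fit, for each gene (panels) and light (rows) at 45 min (blue) and 4 h (red). Filled points have an adjusted p below 0.05, which is 15 of 21 points at 4 h and 1 of 21 at 45 min, and the horizontal scales differ between panels. The fit had no block on the replicate number.

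The dark groups were set against each other to see whether the reference moved between harvests. LHCB4.1 was at 426 ± 121 (SD, n = 3) at 45 min and 456 ± 84.2 at 4 h, a difference of 0.12 ± 0.30 (adjusted p = 0.949, limma). LHCB4.2 was at 245 ± 81.9 and 374 ± 49.7, and its 3 arrays at 4 h were above the 3 at 45 min, by 0.65 ± 0.26 (adjusted p = 0.44). LHCB4.3 was at 94.6 ± 4.64 and 111 ± 9.38, again without overlap (0.23 ± 0.13, adjusted p = 0.627). None of the 3 differences was called, and 0.0317% of all tested probe sets were. The share of all tested probe sets whose dark groups do not overlap is not given here. For light against darkness at 45 min, 5.96% to 8.49% had all 3 light arrays above all 3 dark arrays. For LHCB4.2 and LHCB4.3, values against darkness at 45 min rest on the dark group with the lower arrays, a difference that was not called. For LHCB4.1 the dark arrays of both harvests overlapped.

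Whether the light change was larger at 4 h than at 45 min was tested as an interaction, each light against its own dark group. Of 21 such tests 6 were called, all with the larger change at 4 h. For LHCB4.1 the difference was 1.63 ± 0.43 in red (adjusted p = 0.0129), 1.3 ± 0.43 in white (0.0491) and 1.22 ± 0.43 in far-red (0.0456), all by limma. For LHCB4.2 it was 1.31 ± 0.37 in red (adjusted p = 0.0215) and 1.08 ± 0.37 in blue (0.0484), and for LHCB4.3 it was 0.64 ± 0.18 in far-red (0.0127). LHCB4.1 in blue (1.23, adjusted p = 0.0547) and LHCB4.2 in white (1.1, adjusted p = 0.053) lay just outside the threshold. The share of all tested probe sets called for the same interaction was 6.8% in red, 15% in far-red, 11.4% in blue, 8.73% in white, 1.72% for the red pulse, 4.17% for UV-A and 10% for UV-A/B.

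After the 3 pulses no interaction was called for any of the genes in the fit without a block. For LHCB4.1 the estimates were 1.16 (red pulse), 0.90 (UV-A) and 0.83 (UV-A/B), with adjusted p from 0.217 to 0.294. Blocked on the replicate number, all 3 of these were called, with adjusted p of 0.0034, 0.0194 and 0.0207 (limma). Among the pulses, UV-A/B alone passed the rule for pairing with darkness at both harvests. For LHCB4.2 the estimates were 0.44, 0.29 and -0.13, and for LHCB4.3 -0.33, -0.27 and -0.39. The interval of LHCB4.3 after UV-A/B lay below 0 (-0.76 to -0.02, adjusted p = 0.188).

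Most of the interaction calls depended on single arrays. The LHCB4.3 call in far-red held without each of the 12 arrays. The LHCB4.1 call in red ended when dark 45 min replicate 2 (1.42, adjusted p = 0.0529) or red 45 min replicate 3 (1.42, 0.0515) was left out. The LHCB4.2 call in red ended without any 1 of dark 4 h replicate 1 (1.24, adjusted p = 0.0561), dark 45 min replicate 2 (1.06, 0.0875), red 4 h replicate 2 (1.22, 0.0612) and red 45 min replicate 3 (1.14, 0.0749). The LHCB4.1 call in far-red was lost for 9 of 12 arrays, which are all but dark 4 h replicate 2, dark 45 min replicate 3 and far-red 45 min replicate 2, and the values then ran from 1.01 to 1.29 with adjusted p up to 0.143. The LHCB4.1 call in white was lost for 8 of 12, all but dark 4 h replicate 2, dark 45 min replicate 3, white 4 h replicate 3 and white 45 min replicate 2, with adjusted p up to 0.155. The LHCB4.2 call in blue was lost for 9 of 12, all but dark 4 h replicate 2, dark 45 min replicate 3 and blue 45 min replicate 2, with adjusted p up to 0.178. Values that were not called came past the threshold for LHCB4.1 in blue without blue 4 h replicate 3 (1.38), blue 45 min replicate 2 (1.36) or dark 45 min replicate 3 (1.4). They did so for LHCB4.2 in far-red without far-red 45 min replicate 2 (1.14) or dark 45 min replicate 3 (1.11), and in white without dark 4 h replicate 2 (1.20), dark 45 min replicate 3 (1.32) or white 45 min replicate 2 (1.27).

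Light qualities were then set against each other, with 10 comparisons for each gene and 9 of them at 4 h. For LHCB4.3, 3 of 10 were called, and for LHCB4.1 and LHCB4.2 none. LHCB4.3 was lower in red than in far-red light by 0.76 ± 0.13 (adjusted p = 4.4e-05, limma), with no overlap between 87.9 to 140.4 in red and 195.6 to 215.3 in far-red. It was higher in far-red light than after the red pulse by 0.93 ± 0.13 (adjusted p = 4.57e-07, limma). Both calls held without each array in turn. It was higher in blue than in red light by 0.45 ± 0.13 (adjusted p = 0.0376, limma), and all blue arrays were above all red arrays. That call was lost without blue 4 h replicate 1 (0.38, adjusted p = 0.21), blue 4 h replicate 3 (0.43, 0.124) or red 4 h replicate 3 (0.23, 0.492), and when the 2 groups were fitted alone (adjusted p = 0.228). Blue was 0.32 below far-red light, with groups that did not overlap, but the difference was not called (-0.32 ± 0.13, adjusted p = 0.738). White light gave 0.22 above red and 0.22 below blue, and neither was called (adjusted p = 0.779 and 0.889).

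For LHCB4.1 and LHCB4.2 red light gave the highest mean, and far-red gave lower means. LHCB4.1 was 0.26 higher in red than in far-red light, with a 95% interval from -0.35 to 0.87 (adjusted p = 0.755, limma), and LHCB4.2 was 0.42 higher, with an interval from -0.10 to 0.95 (adjusted p = 0.43). For LHCB4.2, continuous red light was above the red pulse by 0.71, with an interval from 0.18 to 1.23 and no overlap of arrays, but the adjusted p over all probe sets was 0.144. For LHCB4.1 the same comparison gave 0.33, from -0.28 to 0.94 (adjusted p = 0.785). The change in the other direction between blue and red was -0.42 for LHCB4.1 and -0.38 for LHCB4.2, with adjusted p of 0.604 and 0.575. Between the UV-A/B and UV-A pulses the 3 genes differed by 0.076, -0.20 and -0.059 at 4 h and by 0.15, 0.22 and 0.063 at 45 min, and none was called. UV-A and the red pulse differed by -0.26, -0.24 and -0.036 at 4 h, with adjusted p of 1.00 for each.

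Over all tested probe sets, the share called in either direction was 7.33% for red against far-red, 17.9% for far-red against the red pulse, 4.15% for blue against red and 4.09% for red against the red pulse. It was 0.228% for blue against far-red, 0.602% for white against red, 0.456% for white against blue and 0.038% for UV-A against the red pulse. For UV-A/B against UV-A it was 8.74% at 4 h and 2.16% at 45 min. How many of all tested probe sets show no overlap between 2 lights is not given here. Absence of overlap between lights is therefore a description only.

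Ordered by mean signal, the light groups at 4 h came first for LHCB4.1 and LHCB4.2. For LHCB4.1 the order from the top at 4 h was red, white, far-red, red pulse, UV-A/B, blue and UV-A, from 1368 ± 255 down to 911 ± 159 (SD, n = 3). The 9 remaining groups, darkness at 4 h among them, lay between 399 ± 70.3 and 511 ± 158. Of 15 neighbouring pairs in this order 14 overlapped, and the exception was the step from UV-A at 4 h to UV-A/B at 45 min. For LHCB4.2 the order was red, white, blue, far-red, red pulse, UV-A and UV-A/B, from 1336 ± 162 to 631 ± 262, and 13 of 15 neighbouring pairs overlapped. The steps without overlap were from white to blue and from far-red to the red pulse. For LHCB4.3 the order was far-red (203 ± 10.8), blue (163 ± 16.8), white (140 ± 24.6) and red (122 ± 29.3) at 4 h, then the light groups at 45 min and darkness at 4 h. The red pulse, UV-A and UV-A/B at 4 h came below these at 106 ± 5.06, 104 ± 9.49 and 100 ± 16.8, and darkness at 45 min came last at 94.6 ± 4.64. Here 14 of 15 neighbouring pairs overlapped, all but far-red and blue. Such counts over all tested probe sets are not given here, so the steps without overlap only describe these genes.

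Unequal change of the genes within an array can be read from the difference of their log2 values, whose level also carries the brightness of the probes. The difference LHCB4.1 minus LHCB4.3 was 1.94, 2.33 and 1.77 in the dark arrays at 4 h. It was 3.29, 3.55 and 3.64 in red light and 3.26, 3.44 and 3.29 after the red pulse, all above the dark arrays. In far-red light it was 2.39, 2.40 and 2.64, again above the dark arrays but below all arrays of red light and the red pulse. In blue light it was 2.36, 3.22 and 2.29, and replicate 3 lay within the range of the dark arrays.

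The difference LHCB4.1 minus LHCB4.2 moved less. In darkness at 45 min it was 0.78, 0.74 and 0.90, above each of the 21 light arrays at that harvest, which ran from -0.012 to 0.68. At 4 h it was 0.48, 0.30 and 0.040 in darkness, 0.082, 0.097 and -0.11 in red light and 0.74, 0.84 and 0.42 after UV-A/B. All UV-A/B arrays were above all red arrays. The dark arrays at 4 h lay within the range of the light arrays of that harvest, from -0.22 in blue light to 0.84 after UV-A/B. All light arrays of a harvest are set against the same 3 dark arrays. These differences were not tested, and such differences for other gene pairs are not given here.

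**Figure D3:**
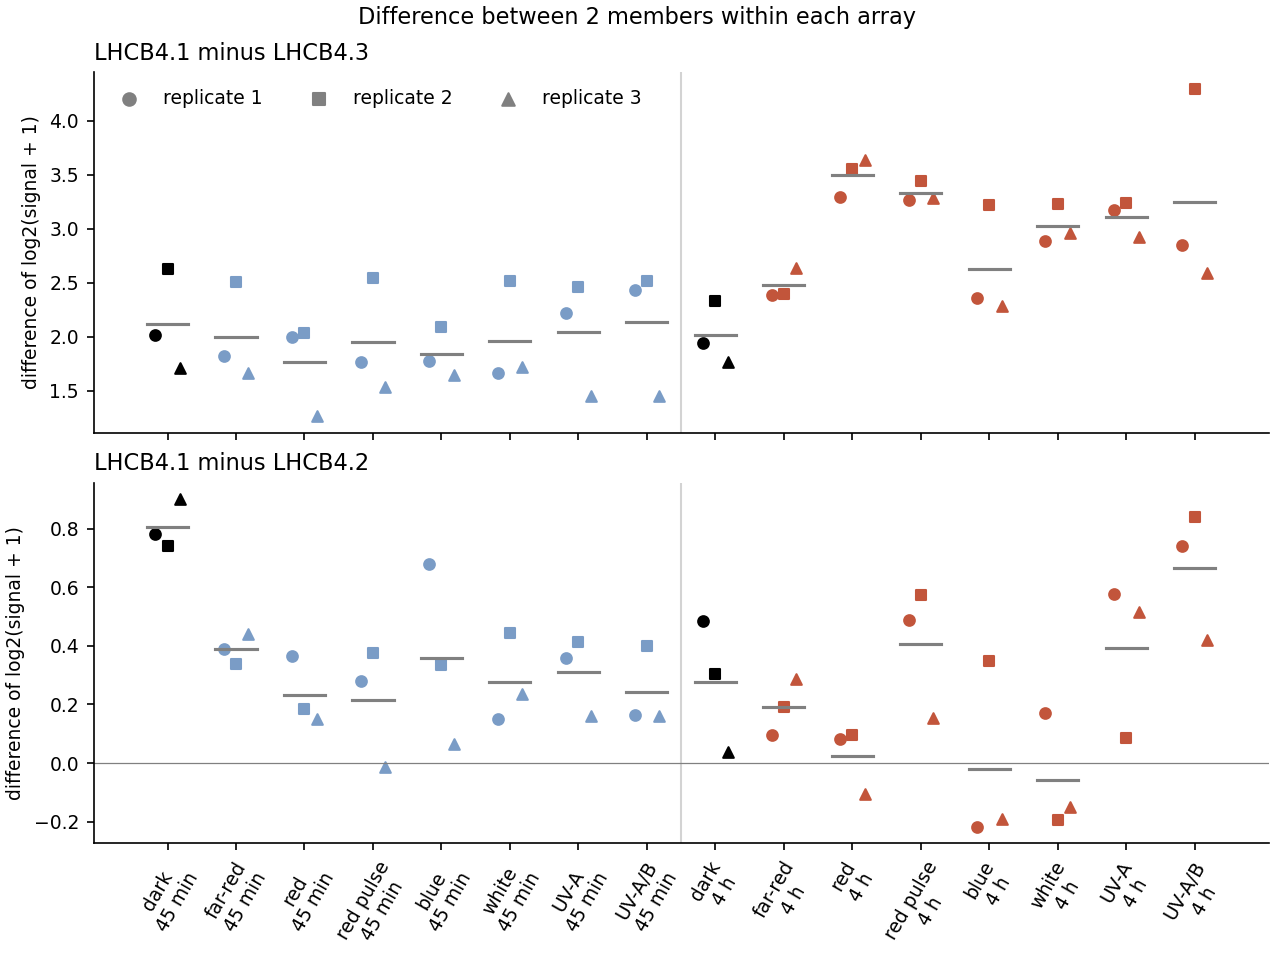
Difference of log2(signal + 1) between 2 genes within the same array, for LHCB4.1 minus LHCB4.3 (top) and LHCB4.1 minus LHCB4.2 (bottom), by group, with symbols for the replicate number and grey bars for group means. In the top panel red light at 4 h (3.29 to 3.64) lies above far-red at 4 h (2.39 to 2.64) and darkness at 4 h (1.77 to 2.33), and in the bottom panel darkness at 45 min (0.74 to 0.90) lies above every light array of that harvest.

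LHCB4.1 and LHCB4.2 also varied together among arrays of one group, by the replicate number in the label. LHCB4.1 was highest in replicate 2 in 12 of 16 groups and lowest in replicate 3 in 14 of 16. LHCB4.2 was highest in replicate 2 in 13 of 16 groups and lowest in replicate 3 in 10 of 16. LHCB4.3 was highest in replicate 1 in 9 of 16 groups, and replicates 2 and 3 were lowest in 7 each. The same array was highest for LHCB4.1 and LHCB4.2 in 11 of 16 groups and for LHCB4.1 and LHCB4.3 in 4 of 16. Counts by replicate number over all tested probe sets are not given here, so these only describe the 3 genes.

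In size, replicate 3 was below replicate 2 by a mean of 0.65 ± 0.077 (log2, standard error over 16 groups) for LHCB4.1 and 0.50 ± 0.076 for LHCB4.2, and the 2 differed by 0.0031 ± 0.051 for LHCB4.3. At 45 min the means were -0.78, -0.64 and 0.075, and at 4 h -0.52, -0.36 and -0.069. This comparison was chosen after seeing the data and is given as a description. The share of all tested probe sets with such a shift is not given here. Deviations of same-numbered arrays correlated above 0.1 for every number over all tested probe sets in 12 of 25 comparisons. The shift is therefore not shown to be particular to these genes. Numbers of replicates have no order, and what the numbers stand for is not stated in the labels. The spread within groups had a median coefficient of variation of 26.1% for LHCB4.1, 20.6% for LHCB4.2 and 8.25% for LHCB4.3.

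**Figure D4:**
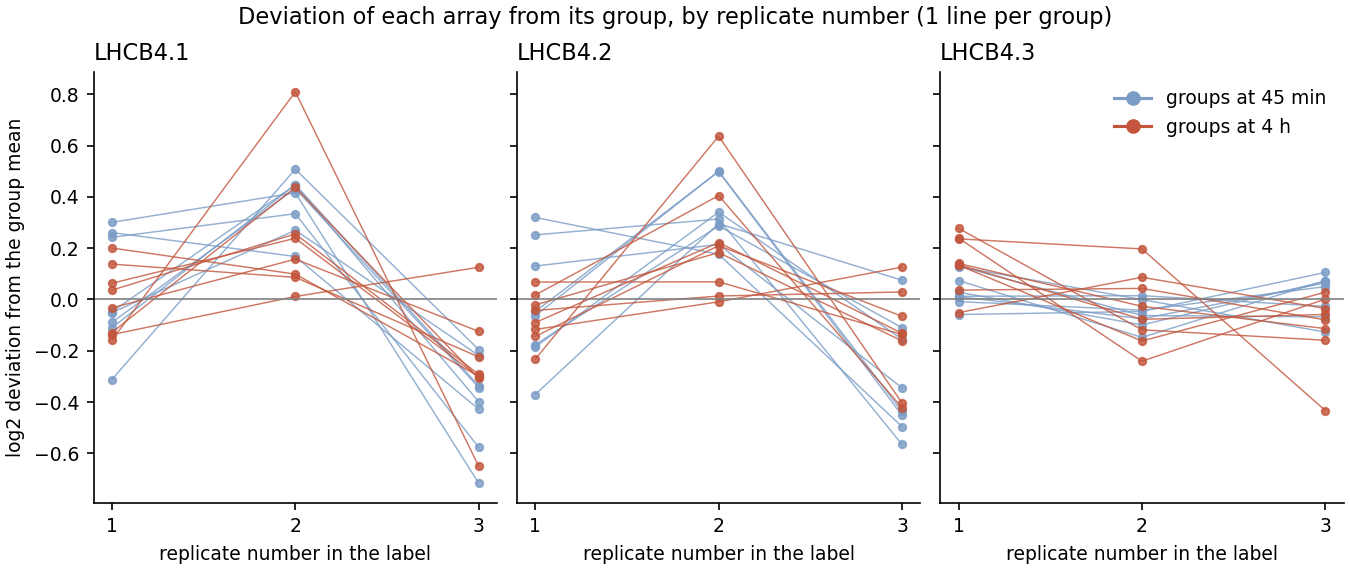
Deviation of each array from the mean of its group in log2(signal + 1), by the replicate number in the label, with 1 line for each of the 8 groups at 45 min (blue) and the 8 groups at 4 h (red). For LHCB4.1 replicate 3 is lowest in 14 of 16 groups, and for LHCB4.3 no number is lowest in more than 7 of 16; lines only join the arrays of a group.

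The genes most like each CP29 gene over the 16 group means were taken from 8696 tested probe sets with 1 named gene. Pearson correlations over group means describe likeness only, since all genes share the same arrays and one large step between harvests. LHCB4.1 was most like AT4G01150, which is CURT1A (r = 0.992), and AT1G52220, which is CURT1C (r = 0.99), both thylakoid proteins that curve the membrane. PSAE-1, a stromal subunit of photosystem I, came next (r = 0.989), followed by AT1G51400 and AT5G48490. LHCB4.2 was most like AT4G27700 (r = 0.98), then PSB27 (r = 0.979), an assembly factor of photosystem II, PSAN (r = 0.975), a lumenal subunit of photosystem I, PSBY (r = 0.974), a small protein of photosystem II, and AT2G26500. Of these 10 genes, 7 were called higher in 7 of 7 lights at 4 h, and CURT1A, PSB27 and AT2G26500 in 4, 5 and 4 of 7. AT4G27700 was called in 1 light at 45 min and the other 9 in none. All 10 were picked for group means like those of LHCB4.1 or LHCB4.2, so these counts follow in part from the choice.

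LHCB4.3 had other neighbours. These were AT4G03200 (r = 0.955), AT1G55960 (r = 0.953), AT5G42760 (r = 0.941), AT3G26070 (r = 0.927, a probe set that may read more than 1 transcript) and AT5G24165 (r = 0.916). At 4 h the far-red, red and blue changes of AT1G55960 were 1.33, 0.33 and 1.11, and those of AT5G42760 were 3.36, 0.94 and 2.24. These genes were picked for following LHCB4.3 over the same groups, so a like order of lights follows in part from the choice. The correlation between the genes themselves was 0.964 for LHCB4.1 and LHCB4.2, 0.484 for LHCB4.1 and LHCB4.3, and 0.600 for LHCB4.2 and LHCB4.3.

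**Figure D5:**
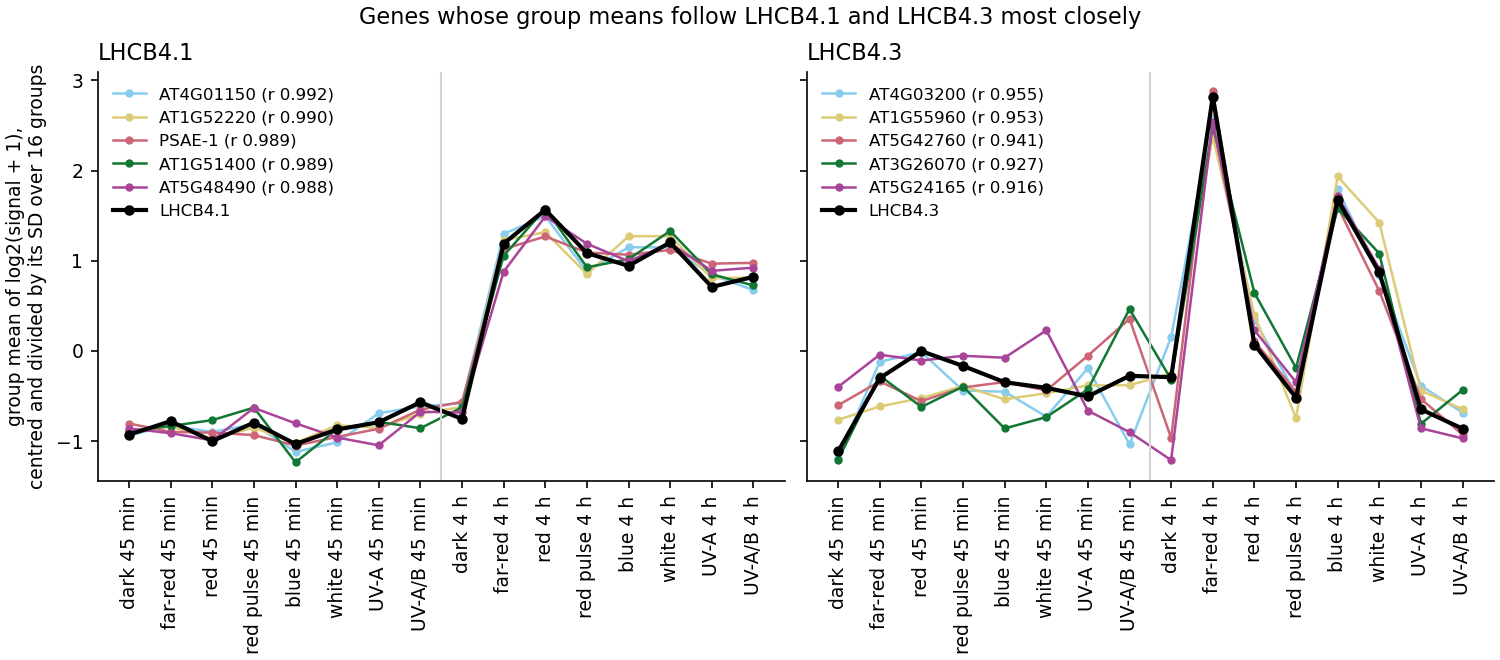
Group means of log2(signal + 1), centred and divided by their SD over the 16 groups, for LHCB4.1 (left) and LHCB4.3 (right) in black with the 5 most correlated genes in colour. The means of LHCB4.1 and its neighbours are higher in each light group at 4 h than in darkness at 4 h, although CURT1A (AT4G01150) passed the test in 4 of 7 lights, and LHCB4.3 and its neighbours peak in far-red and, less, in blue light at 4 h. The neighbours were picked for this likeness.

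Other genes of the photosynthetic apparatus were read from lists matched by locus. None of 21 other light-harvesting genes and none of 8 genes for antenna insertion and phosphorylation had a probe set of 1 named gene, so the rest of the antenna was not analysed here. Of 12 nuclear photosystem II genes 3 were measured, and 3 of 3 were called higher at 4 h in far-red, red, blue and white light and after UV-A/B, and 2 of 3 after the red pulse and UV-A. PSBW, a small membrane subunit, changed by 1.24 to 1.67 over the 7 lights, PSBY by 1.15 to 1.96 and PSB27 by 0.83 to 1.45. Of 12 nuclear photosystem I genes 2 were measured, and both were called in 7 of 7 lights, PSAE-1 with 2.21 to 2.65 and PSAN with 1.19 to 2.16. None of these 5 genes was called at 45 min.

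Of 19 chlorophyll synthesis genes 5 were measured. HEME2 (uroporphyrinogen decarboxylase) was called higher at 4 h in 5 of 7 lights with changes of 0.51 to 0.89, and CHLM (magnesium protoporphyrin methyltransferase) in 4 of 7 with 0.52 to 0.95. PORB, a protochlorophyllide reductase of etioplasts and greening plastids, was called lower in 3 of 7, which were far-red, blue and white, with values from -1.55 to 0.33 over the 7 lights. The other 2 were called in no light at 4 h, and none of the 5 at 45 min. Of 9 carotenoid genes 1 was measured, LYC (lycopene cyclase), which was called higher in 4 of 7 lights at 4 h, by at most 0.41. Of 17 regulators 1 was measured, HYH, a bZIP factor related to HY5, which was called higher in 7 of 7 lights at 45 min (2.47 to 3.69) and in 5 of 7 at 4 h, not after the red pulse or UV-A. RCA was called in 7 of 7 lights at 4 h (1.22 to 2.09) and in none at 45 min, and its part in the CP29 values was not tested.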

How the data were processed

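The 3 genes and the gene lists were chosen with earlier results of these data known. The authors deposited linear intensity values, here called signals. Per the submitters' processing notes MAS5 produced them. Its version is not given in those notes. Trimmed means lay at 100 on every array, and arrays were not scaled again. Equal means hide any shift of total expression. No detection calls were used, and the number of arrays limits the precision.

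Signals were transformed to log2(signal + 1), which understates changes of low genes. A probe set was tested where its signal exceeded the array's 40th percentile (24.3 to 30.1) on 3 or more arrays, with 64 controls excluded. The 16 groups were fitted over 48 arrays by lmFit and trended eBayes of limma 3.58.1 under R 4.3.3, leaving 32 residual degrees of freedom, with Benjamini-Hochberg adjustment over 15777 probe sets within each of 32 contrasts. The script was tested on simulated data. Data handling used data.table (version 1.17.8), pandas 2.3.3, numpy 2.4.6 and Python 3.11.15, and figures matplotlib 3.10.9.

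Groups and replicate numbers came from the labels. Named besides the 3 genes were the 5 probe sets most correlated with each and, from each list, up to 3 measured genes with the largest median change at 4 h. The probe annotation gives 1 gene for 13513 of 22746 non-control probe sets and several for 503, and it does not list 8730. Symbols came from RefSeq by locus. Same-numbered arrays were taken as paired where their deviations from the group means correlated above 0.1 for every number, which held for 12 of 25 comparisons of 2 groups and for 6 of 14 of light with darkness (red, red pulse, blue, UV-A and UV-A/B at 45 min, and UV-A/B at 4 h). Alternatives were no filter, a pseudocount of 16, quantile normalization, no intensity trend, separate fits, the replicate number as a block, and leaving out arrays.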

Additional observations from a re-analysis of the deposited data

Results flagged for a closer look

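Light changes that differed between the 45 min and 4 h harvests by an interaction test in limma are listed here, each as the log2 change at 4 h minus that at 45 min. For LHCB4.1 they were 1.63 in red, 1.3 in white and 1.22 in far-red light. For LHCB4.2 they were 1.31 in red and 1.08 in blue light. For LHCB4.3 the difference was 0.64 in far-red light. Each uses the 3 dark arrays of both harvests, and the dark signals of LHCB4.2 and LHCB4.3 at 4 h lay above those at 45 min. Neither of these dark differences was called.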

How the results depend on the processing

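Over 96 results, 627 of 672 values under alternatives that kept or changed the fit as a whole, and 603 of 702 values with 1 array left out, kept their direction and their side of the threshold. The far-red, red, blue and white calls of LHCB4.1 and LHCB4.2 at 4 h, and the far-red and blue calls of LHCB4.3, held under each of these. Calls at 45 min and after pulses rest on few arrays, and the spread of LHCB4.1 within groups limits the precision. The causes of the changes below were not tested.

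Without the filter and, likewise, without the intensity trend, 6 calls were lost at unchanged values. These were LHCB4.1 (1.00) and LHCB4.2 (0.88) after UV-A at 4 h, LHCB4.2 after UV-A/B at 45 min (0.81), and the interactions of LHCB4.1 in far-red (1.22) and white (1.3) and of LHCB4.2 in blue (1.08). Quantile normalization lost LHCB4.1 after UV-A at 4 h (0.99) and its far-red (1.22) and white (1.3) interactions, and gained LHCB4.2 after UV-A/B at 4 h (0.72). A pseudocount of 16 gained the last (0.66) and the white interaction of LHCB4.2 (1.09). Fitted on 2 groups alone, LHCB4.2 after UV-A/B at 45 min (0.81) and LHCB4.3 in blue against red (0.45) were lost, and LHCB4.2 in red against far-red (0.42) and against the red pulse (0.71) were gained. Fitted on 4 groups alone, the interactions of LHCB4.1 in blue (1.23) and LHCB4.2 in white (1.1) were gained.

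Without 2 of the arrays with conflicting labels (UV-A/B 45 min replicate 2 and dark 4 h replicate 1), calls were lost for LHCB4.1 (1.03) and LHCB4.2 (0.81) after UV-A at 4 h, LHCB4.2 after the red pulse at 4 h (1.05) and after UV-A/B at 45 min (0.72), and for the interactions of LHCB4.1 in far-red (1.26) and white (1.33) and of LHCB4.2 in red (1.24) and blue (1.01). LHCB4.3 after the red pulse at 4 h (0.0048) and LHCB4.1 in UV-A/B against UV-A at 45 min (-0.015) turned their sign near 0.

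With the replicate number as a block, no call was lost. In comparisons where the numbers pair the arrays, LHCB4.2 was gained after the red pulse (0.68) and UV-A (0.59) at 45 min and after UV-A/B at 4 h (0.68), and the LHCB4.1 interaction after UV-A/B (0.83), whose 2 comparisons with darkness are both paired. Elsewhere not every number passed the rule for pairing. There the block gained LHCB4.2 in red against the red pulse (0.71, adjusted p = 0.00775, limma) and LHCB4.3 in white at 4 h (0.32, adjusted p = 0.0365, limma). It also gained the LHCB4.1 interactions in blue (1.23), red pulse (1.16) and UV-A (0.90), and the LHCB4.2 interactions in far-red (0.89) and white (1.1). The block changed no other call. The number of CP29 tests called at 45 min was 1, and became 3 with the block and 0 without the filter, without the trend, on 2 groups alone or without those 2 arrays. At 4 h it was 15, and ran from 12 to 17 under these alternatives. With each of the 24 arrays of a harvest left out in turn, it ran from 11 (without dark 4 h replicate 3) to 16 at 4 h and from 0 to 1 at 45 min.

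With 1 array left out at a time, the log2 changes at 4 h ran from 1.1 to 1.37 (red pulse), 0.85 to 1.15 (UV-A) and 0.67 to 1.4 (UV-A/B) for LHCB4.1. For LHCB4.2 they ran from 1.05 to 1.23, 0.68 to 1.09 and 0.37 to 0.89 for the same pulses, and for LHCB4.3 from -0.017 to 0.32 (red), -0.10 to 0.0048 (red pulse) and 0.18 to 0.40 (white). At 45 min those of LHCB4.1 ran from -0.12 to 0.32 (far-red), -0.22 to 0.17 (red), -0.13 to 0.31 (red pulse), -0.24 to 0.15 (blue), -0.21 to 0.26 (white) and -0.11 to 0.45 (UV-A), and LHCB4.2 after UV-A/B from 0.59 to 1.06. Interactions of LHCB4.1 ran from 1.01 to 1.45 (far-red), 1.42 to 1.80 (red), 1.01 to 1.4 (blue), 1.08 to 1.55 (white), 0.95 to 1.39 (red pulse), 0.55 to 1.11 (UV-A) and 0.42 to 1.15 (UV-A/B). Those of LHCB4.2 ran from 0.64 to 1.14 (far-red), 1.06 to 1.53 (red), 0.83 to 1.3 (blue), 0.85 to 1.32 (white), 0.19 to 0.66 (red pulse), 0.0094 to 0.51 (UV-A) and -0.45 to 0.091 (UV-A/B), and those of LHCB4.3 from -0.33 to 0.0087 (red), -0.011 to 0.21 (white), -0.40 to -0.26 (red pulse), -0.34 to -0.20 (UV-A) and -0.51 to -0.27 (UV-A/B). LHCB4.1 between dark groups ran from -0.052 to 0.34. Between lights, LHCB4.3 ran from 0.23 to 0.56 (blue against red) and -0.11 to 0.021 (UV-A against the red pulse). UV-A/B against UV-A ran from -0.33 to 0.40, -0.52 to 0.0048 and -0.18 to 0.061 for LHCB4.1, LHCB4.2 and LHCB4.3 at 4 h, and from -0.21 to 0.44, -0.061 to 0.47 and -0.00010 to 0.13 at 45 min.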
